A study of Mus musculus with 446 samples.

Results

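The genes described here are 10 glutathione S-transferases (GSTs) of the mouse: Gstm1, Gstm2, Gstm3, Gstm4 and Gstm6 of the mu class, Gsta2 and Gsta4 of the alpha class, Gstt1 and Gstt3 of the theta class, and Gstp1 of the pi class. They were picked by symbol and matched to the Ensembl gene IDs of the deposited tables. All 10 had a row among the 47643 genes of the liver and muscle tables, and 3 of them (Gstm3, Gstt1 and Gstt3) had a row among the 2728 genes of the adipose table. The mice were male Diversity Outbred animals, an outbred stock in which every mouse is genetically distinct, housed singly from 6 weeks of age. High-fat mice were given a diet with 60 kcal% fat for 14 weeks, and control mice stayed on the diet with 10 kcal% fat that both groups had eaten until then. The labels name no engineered allele and no agent besides the diet. Total RNA of liver, skeletal muscle and abdominal adipose tissue was sequenced. The samples hold no adipose library of mouse 24, a control animal. In all, 74 high-fat and 74 control mice entered the liver and the muscle comparison, 75 high-fat and 73 control mice the adipose comparison.

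GSTs join the tripeptide glutathione to electrophilic compounds, among them drug metabolites, environmental toxins and products of lipid peroxidation, and the conjugates are then exported and broken down to mercapturic acids. The liver is the main site of this detoxification. Alpha, mu and pi enzymes are abundant cytosolic proteins, the theta enzymes act on small halogenated compounds, and Gsta4 has a preference for hydroxyalkenals formed from oxidised lipids. Gstp1 is known in mouse liver for its higher level in males than in females. Many GST genes are targets of the transcription factor NRF2 or of the xenobiotic receptors CAR and PXR, and members of a class lie side by side in the genome.

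The promoter windows of the 4 members that fell in liver on the high-fat diet are shown because these genes lie in 2 clusters, on chromosomes 3 and 10. Each window runs from 250 bases before to 50 bases after an annotated start, is read 5′ to 3′ on the gene's strand, and comes from RefSeq on GRCm38.p6. A window was found for 9 of the 10 members (14 windows in all). Capitals mark 4 motifs searched on both strands: the antioxidant response element core TGACNNNGC, which NRF2 binds, the nuclear receptor core site AGGTCA, the TATA box TATAAA and the CCAAT box (ATTGG on the opposite strand); no 2 of them overlap in these windows.
Gstm1, second start, chr3:108017769-108018068, minus strand: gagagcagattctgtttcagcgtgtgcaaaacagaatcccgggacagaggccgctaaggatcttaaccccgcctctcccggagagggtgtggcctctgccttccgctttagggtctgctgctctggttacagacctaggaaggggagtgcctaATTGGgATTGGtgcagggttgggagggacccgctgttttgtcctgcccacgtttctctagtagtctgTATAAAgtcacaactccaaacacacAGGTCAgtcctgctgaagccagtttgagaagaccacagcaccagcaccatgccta
Gstm6, first start, chr3:107953417-107953716, minus strand: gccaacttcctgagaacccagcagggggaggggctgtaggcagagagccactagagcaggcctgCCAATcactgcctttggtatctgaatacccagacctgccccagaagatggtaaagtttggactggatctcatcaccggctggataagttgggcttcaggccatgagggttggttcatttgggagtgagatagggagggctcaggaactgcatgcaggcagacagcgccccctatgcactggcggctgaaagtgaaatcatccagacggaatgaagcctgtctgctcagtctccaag
Gstt1, chr10:75797682-75797981, minus strand: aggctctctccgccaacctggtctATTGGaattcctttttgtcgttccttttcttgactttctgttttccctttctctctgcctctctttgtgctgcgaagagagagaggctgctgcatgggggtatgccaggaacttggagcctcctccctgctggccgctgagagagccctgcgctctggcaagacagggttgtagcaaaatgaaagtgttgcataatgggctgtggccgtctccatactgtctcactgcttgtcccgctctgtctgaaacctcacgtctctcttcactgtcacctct
Gstt3, first start, chr10:75781373-75781672, minus strand: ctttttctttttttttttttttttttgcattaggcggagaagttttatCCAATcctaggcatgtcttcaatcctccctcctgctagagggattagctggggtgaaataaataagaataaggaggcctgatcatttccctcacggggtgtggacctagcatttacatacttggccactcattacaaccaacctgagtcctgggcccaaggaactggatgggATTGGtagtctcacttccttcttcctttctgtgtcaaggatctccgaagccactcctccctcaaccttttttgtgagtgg

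The CCAAT box was found in windows of 7 of the 9 members, against 41.1% of the 27025 genes with a window. The Gstm1 window above holds it 91 and 97 bases before the start, with a TATA box 30 bases and an AGGTCA 5 bases before the start. TATAAA was found for 2 of 9 members (15.7% of all genes) and AGGTCA for 1 of 9 (18.1%). TGACNNNGC was found in 0 of 9, against 14% of all genes, which says only that these letters are not in these windows. In the same annotation Gstm6, Gstm3, Gstm2, Gstm1 and Gstm4 follow each other on chromosome 3, between Gstm7 and Ampd2, and Gstt3 and Gstt1 follow each other on chromosome 10, between Ddt and Gstt4. Gstp1 lies on chromosome 19 next to Gstp2, and Gsta2 and Gsta4 lie apart on chromosome 9.

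The values are TPM, a unit normalised for transcript length and library total, divided here by a scale factor for each library and given as scaled TPM. The deposited values carry no read depth. Protein-coding genes held 0.41% to 74.9% of the TPM in liver libraries and 2.54% to 76.3% in muscle libraries, a range that the scaling is meant to offset. Of the libraries, 26 in liver (12 high-fat and 14 control), 11 in muscle (9 high-fat and 2 control) and 18 in adipose tissue (7 high-fat and 11 control) had a scale factor more than 3 times below their tissue's median. The library labelled liver of mouse 80, a high-fat animal, summed to 180.1 scaled TPM over 8 hepatocyte markers and 60370 over 8 muscle fibre markers, and its muscle library to 80010 and 448.2; the GSTs followed, with Gstp1 at 97.8 in the library labelled liver and at 2262 in that labelled muscle. Both libraries were left out. The other liver libraries had a median hepatocyte marker sum of 37660 (21820 to 60910), and the other muscle libraries a median fibre marker sum of 105000 (35050 to 155900). Over 150 genes chosen for their correlation between tissues, 7 livers were more like the muscle of another mouse than that of their own.

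Gstp1 was the most abundant member in liver by TPM, which is per length of transcript, with 1488 ± 744 scaled TPM on the high-fat and 1174 ± 545 on the control diet (SD, n = 74 each). It made up a median of 81.2% of the summed TPM of the 10 members in high-fat livers (18.8% to 96%) and 72.1% in control livers (33.5% to 89.1%). Gstm1 followed with a median share of 9.14% in high-fat and 14.1% in control livers, then Gstt1 with 3.19% and 5.11%. The middle group of Gstm6, Gsta4 and Gstm2 averaged 23.2, 28.3 and 23.7 scaled TPM on the high-fat diet and 32.1, 30.8 and 25.5 on the control diet, values that lie within their SDs of 11.2 to 15.3. Gsta2, Gstt3, Gstm4 and Gstm3 averaged 10.8, 8.28, 6.28 and 3.83 scaled TPM on the high-fat diet and 15.1, 11.8, 7.42 and 4.96 on the control diet, each with an SD of 3.35 or more. In muscle the order was Gstp1, Gstm1, Gstm2, Gsta4, Gstt1, Gstm4 and Gstt3, with means of 209, 69.1, 31.8, 13.3, 7.97, 3.82 and 2.37 scaled TPM on the high-fat diet and 209.9, 72, 40.5, 16.0, 8.87, 4.2 and 2.53 on the control diet. Gstm3 reached 1 scaled TPM in no muscle library, and Gstm6 and Gsta2 did so in 5 high-fat muscle libraries each, against 3 and 2 control libraries, so these 3 members were not tested there. In adipose tissue Gstt1 averaged 45.1 ± 23.9 scaled TPM on the high-fat and 66.1 ± 25.1 on the control diet, Gstt3 10.4 ± 5.47 and 14.5 ± 8.68 (SD, n = 75 and 73), and Gstm3 stayed below 1 in every library.

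On the control diet, with liver and muscle scaled together, 6 of the 7 members tested in both tissues were higher in liver (limma with Benjamini-Hochberg adjustment; 86.8% of all 10191 genes passed, 43.4% in this direction). Gstt1 averaged 108.6 ± 45.6 scaled TPM in liver and 6.81 ± 3.32 in muscle (SD, n = 74 each), a log2 difference of 3.74 ± 0.12 (SE; adjusted p = 1.34e-67). Gstp1 differed by 3.23 ± 0.09, Gstm1 and Gstt3 by 2.38 each, Gsta4 by 1.69 ± 0.09 and Gstm4 by 1.39 ± 0.09, with adjusted p of 1.23e-32 or smaller. Gstm2, whose human counterpart is known as a muscle GST, was the exception, with 37.0 ± 22.2 scaled TPM in liver and 31.3 ± 13.5 in muscle (log2 difference 0.08, 95% interval -0.19 to 0.35, adjusted p = 0.564). With TPM as deposited Gstm2 was lower in liver, by -0.78 (adjusted p = 0.000203), on a scale where the median gene was shifted by -0.68.

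On the high-fat diet 4 of the 10 members fell in liver: Gstm1, Gstm6, Gstt1 and Gstt3, from the mu and theta classes. Over all 11323 genes tested in liver, 10.8% passed the same threshold (limma adjusted p of 0.05) with 5.79% lower and 5.01% higher. Of the 10, 0 rose and 9 had a difference below 0, and the members' median log2 difference was -0.27, against -0.004 for all genes tested. The alpha members and Gstp1 did not pass. With TPM as deposited 0 of 10 passed, at differences of -0.54 to -0.42 for the 4 genes, on a scale where 59 of 12307 genes passed. In bulk tissue, fewer cells of a type and less RNA per cell cannot be told apart.

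Gstm1 (ENSMUSG00000058135), the most abundant mu member in liver, had a lowest, median and highest value of 38.7, 174 and 327 scaled TPM in high-fat livers, against 75.1, 199 and 430 in control livers. The groups overlapped widely, and 53 of 74 high-fat livers lay below the control median. Its mean was 167 ± 55.7 scaled TPM on the high-fat and 207 ± 65.2 on the control diet (SD, n = 74 each), a log2 difference of -0.34 ± 0.08 (SE; adjusted p = 0.00197). Gstm6 (ENSMUSG00000068762), the member farthest from Gstm4 along the cluster, ranged from 2.17 to 51.9 scaled TPM around a median of 22.3 in high-fat livers, against 4.01 to 71.9 around 30.97 in control livers. Of the high-fat livers 58 of 74 lay below the control median. It fell by 0.47 ± 0.14 on the log2 scale (SE; adjusted p = 0.0110). The 3 other mu members had differences of -0.28 ± 0.18 for Gstm3, -0.22 ± 0.10 for Gstm4 and -0.16 ± 0.17 for Gstm2 (SE), with adjusted p of 0.385, 0.157 and 0.662. The 95% interval of Gstm2 ran from -0.48 to 0.17 and so holds a fall as large as that of Gstm1.

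Both theta members fell in liver. Gstt1 (ENSMUSG00000001663), which acts on small halogenated molecules, ranged from 5.12 to 129.2 scaled TPM around a median of 58.7 in high-fat livers, against 1.54 to 164 around 75.1 in control livers. Again 58 of 74 high-fat livers lay below the control median, with 1 control liver far below all others. The log2 difference was -0.43 ± 0.14 (SE; adjusted p = 0.0331). Gstt3 (ENSMUSG00000001665) ranged from 1.81 to 42.96 scaled TPM around a median of 5.89 in high-fat livers, against 0 to 47.8 around 9.80 in control livers, and 56 of 74 high-fat livers were below the control median. Its log2 difference was -0.43 ± 0.14 (SE; adjusted p = 0.0330). Without the filter on low values, which raises the number of genes tested to 36202, Gstt1 and Gstt3 had adjusted p of 0.0900 and 0.0907, and Gstt3 had 0.106 with a pseudocount of 0.1.

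Gstp1 was the one member with a difference above 0 in liver. It ranged from 133.97 to 3648 scaled TPM around a median of 1474 in high-fat livers, against 270.1 to 2837 around 1133 in control livers, and 25 of 74 high-fat livers lay below the control median. The log2 difference of 0.31 ± 0.13 (SE) did not pass (adjusted p = 0.117), and it did without the 11 liver libraries that carry a second number (0.36, adjusted p = 0.0464). Gsta4 had a difference of -0.14 ± 0.12 (adjusted p = 0.553) and Gsta2 of -0.26 ± 0.24 (SE; adjusted p = 0.579). Gsta2 varied most among the members, from 0 to 70.5 scaled TPM in high-fat livers and from 0 to 129.1 in control livers, around medians of 4.75 and 5.54.

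**Figure D1:**
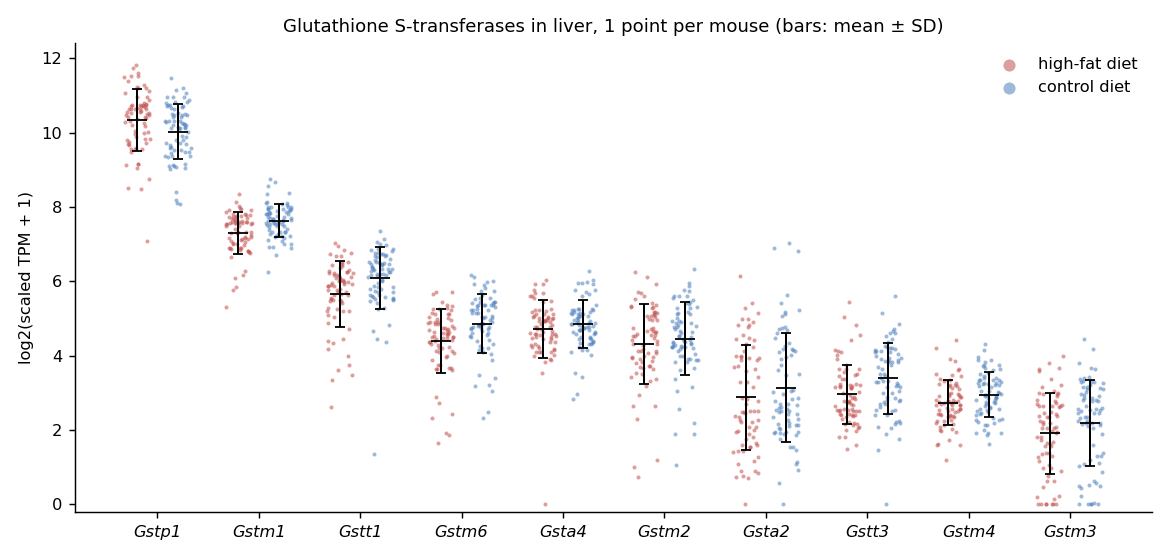
Level of each member in liver, as log2(scaled TPM + 1) on the vertical axis, with 1 point per mouse and the mean ± SD as black bars, for the high-fat diet (red) and the control diet (blue), n = 74 mice each. Gstp1 stands above all other members, and the point clouds of the diets overlap for every member, including the 4 that fell.

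Beside these falls, 5 of 8 hepatocyte markers also fell in high-fat livers (Alb, Ttr, Apoa1, Apoa2 and Cps1; differences of -0.22 to -0.16 on the log2 scale). The others did not pass by limma and went both ways. Serpina1c was at 0.50 ± 0.18 (SE; adjusted p = 0.0548), Tat at -0.10 and Hpd at -0.05 (adjusted p of 0.591 and 0.666). The marker sum had a median of 35740 scaled TPM (21820 to 51170) in high-fat and 39320 (26190 to 60910) in control livers. No hepatocyte marker was at 0 in the median library, and the part of this shift in the GST differences was not tested. Of the other marker lists, 1 of 7 macrophage (Mpeg1), 1 of 6 endothelial (Kdr), 1 of 7 fibroblast and stellate (Pdgfrb) and 1 of 2 adipocyte markers (Lpl) fell, and 0 rose. Over all genes tested in liver 5.79% fell and 5.01% rose, so a single call in a short list says little about a cell type. Sequence shared with other genes limits some members: of the stretches of 50 bases in the longest transcript, 64.2% in Gsta2 also occur in other genes such as Gsta1, 62.3% in Gstp1 (all in Gstp2 or a pseudogene), 28.8% in Gstm3, 23.1% in Gstm1, 11.5% in Gstm6 and 9.36% in Gstm2. The values of Gsta2 and Gstp1 are therefore uncertain as to the copy they come from, while Gstt1, Gstm4 and Gsta4 shared 0% and Gstt3 3.2%.

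In muscle, Gstm2 and Gsta4 fell among the 7 members tested (1.69% of all 13207 genes passed, 0.628% as lower and 1.06% as higher). Gstm2 (ENSMUSG00000040562) ranged from 5.75 to 126.7 scaled TPM around a median of 28.8 on the high-fat diet, against 10.3 to 82.96 around 40 on the control diet. The groups overlapped, with 57 of 74 high-fat muscles below the control median. Its log2 difference was -0.40 ± 0.12 (SE; adjusted p = 0.0463). Gsta4 (ENSMUSG00000032348), the hydroxyalkenal-conjugating enzyme, ranged from 5.03 to 42.2 scaled TPM around 12.6 on the high-fat diet, against 6.41 to 34.7 around 15.5 on the control diet, and 56 of 74 high-fat muscles lay below the control median. It fell by 0.25 ± 0.07 (SE; adjusted p = 0.0489). Both calls sit at the threshold. They were lost when libraries of low scale factor were left out (adjusted p = 0.129 for Gstm2 and 0.148 for Gsta4), when the 7 mice whose tissues did not match were left out (0.0896 and 0.0600), when mouse 80 was kept (0.0633 and 0.256) and without the filter on low values (0.126 and 0.135), with differences of -0.40 to -0.36 for Gstm2 and -0.25 to -0.21 for Gsta4. With TPM as deposited the adjusted p were 0.0956 and 0.264.

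The 5 other members tested in muscle had differences of -0.17 ± 0.10 for Gstt1, -0.10 ± 0.08 for Gstm4, -0.08 ± 0.07 for Gstm1, -0.05 ± 0.08 for Gstt3 and -0.003 ± 0.047 for Gstp1 (SE; adjusted p of 0.526 to 0.991). For Gstp1 the 95% interval of the log2 difference ran from -0.10 to 0.09, the narrowest of the members. None of 5 hepatocyte markers tested in muscle passed, and their sum had a median of 5.20 scaled TPM (0.396 to 6645) in high-fat and 7.25 (0.319 to 1853) in control muscles. Of 5 erythrocyte markers Hbb-bs fell (-0.34 ± 0.10, SE; adjusted p = 0.0463), and their sum had a median of 558.5 scaled TPM (223.3 to 1716) in high-fat and 704.7 (269.9 to 1922) in control muscles. Of 8 muscle fibre markers 0 passed and 7 had a difference below 0, their sum having a median of 95030 scaled TPM (43780 to 155900) and 108800 (35050 to 155600). Of 10 adipocyte markers 0 passed by limma and 4 had an unadjusted p below 0.05, in both directions. These were Cfd (-0.91), Slc2a4 (-0.16), Lep (1.015) and Cidec (0.65), with adjusted p of 0.0593 to 0.250. The adipocyte sum had a median of 1086 scaled TPM (464.3 to 4549) in high-fat and 984.9 (426.6 to 6805) in control muscles. The part of these markers in the muscle values was not tested. Gsta2 was at 0 in 44 of 74 high-fat and 35 of 74 control muscles.

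In adipose tissue both members tested fell, in a table in which 46% of all 2175 genes passed, 23% lower and 23% higher. Gstt1 ranged from 9.51 to 130.96 scaled TPM around a median of 39.7 on the high-fat diet, against 18.1 to 122.8 around 65.7 on the control diet. Of the high-fat samples 64 of 75 lay below the control median. The log2 difference was -0.59 ± 0.11 (SE; adjusted p = 1.69e-06). Gstt3 ranged from 3.20 to 31.7 scaled TPM around 9.04 on the high-fat diet, against 3.21 to 58.5 around 12.3 on the control diet, with 57 of 75 high-fat samples below the control median. It fell by 0.40 ± 0.11 (SE; adjusted p = 0.00115). With TPM as deposited, where the median gene was shifted by 0.21, the differences were -0.35 and -0.18 (adjusted p of 0.175 and 0.417). All 4 adipocyte markers with a row fell too (Retn, Slc2a4, Pparg and Lpl), their sum having a median of 3316 scaled TPM (1488 to 6815) in high-fat and 5022 (1566 to 9566) in control samples. Of 3 macrophage markers tested Cd68 and Adgre1 rose while Cd163 was at -0.13 (adjusted p = 0.171), and the macrophage sum had a median of 220 scaled TPM (62.4 to 830.0) and 90.5 (45.9 to 499). The part of these shifts in the fall of Gstt1 and Gstt3 was not tested.

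**Figure D2:**
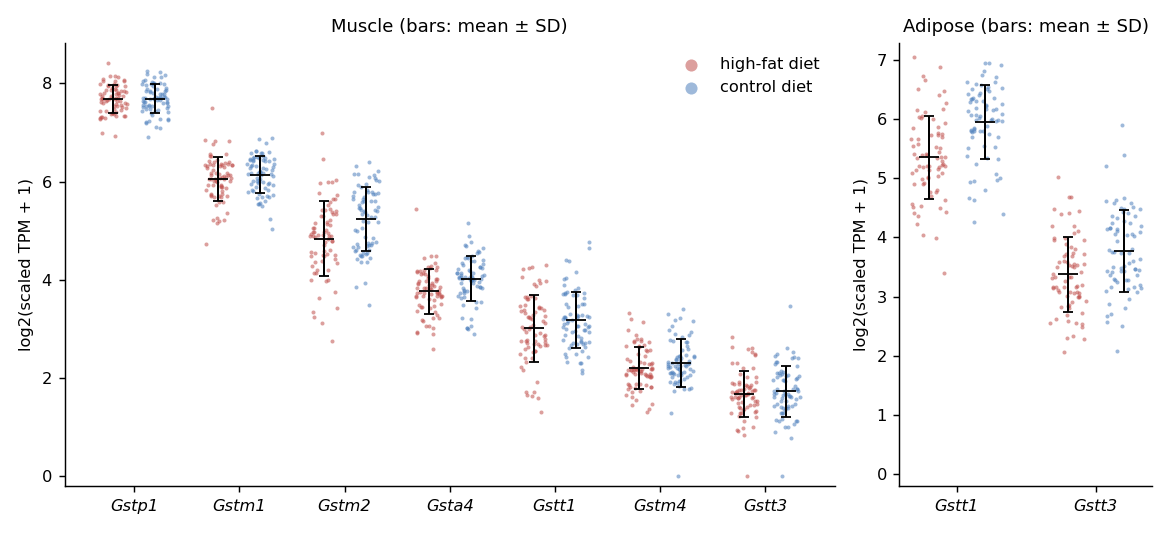
Levels of the 7 members tested in muscle (left panel) and the 2 tested in adipose tissue (right panel), as log2(scaled TPM + 1), with 1 point per mouse and the mean ± SD as black bars, for the high-fat diet (red) and the control diet (blue). Gstp1 in muscle averages 209 scaled TPM on the high-fat and 209.9 on the control diet, and in adipose tissue 64 of 75 high-fat samples have less Gstt1 than the median control sample.

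**Figure D3:**
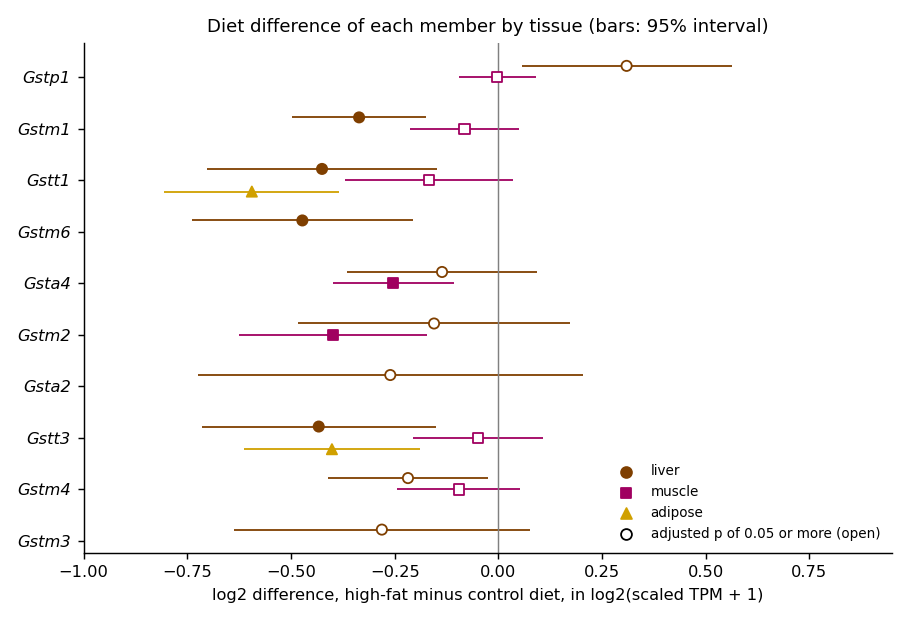
Difference of each member between the high-fat and the control diet on the log2(scaled TPM + 1) scale, with its 95% interval, for liver (circles), muscle (squares) and adipose tissue (triangles). Filled symbols have an adjusted p below 0.05, and every symbol except Gstp1 in liver lies below 0, with Gstp1 in muscle at -0.003, a sign that turned when libraries of low scale factor were left out, when the mismatched mice were left out and when mouse 80 was kept.

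The diet difference itself was compared between tissues with an interaction term. Between liver and muscle 0 of 7 members passed (3.51% of 10191 genes did by limma), with 3 of 7 at an unadjusted p below 0.05: Gstp1 with an effect larger by 0.31 ± 0.14 in liver, Gstt3 with -0.38 ± 0.17 and Gstm1 with -0.25 ± 0.11 (SE; adjusted p of 0.222, 0.207 and 0.198). Gstm2, which passed in muscle alone, had an interaction of 0.24 (95% interval -0.16 to 0.64), so that its diet difference is not shown to differ between the tissues. Gstt3 passed once libraries of low scale factor were left out (-0.53, adjusted p = 0.0297). Between liver and adipose tissue 0 of 2 passed, also at an unadjusted p below 0.05 (27% of 1695 genes passed), with 0.17 for Gstt1 (95% interval -0.18 to 0.52) and -0.03 for Gstt3 (-0.38 to 0.32). Between muscle and adipose tissue both theta members passed (24.2% of 1899 genes did), a call that ended with a pseudocount of 0.1 (adjusted p of 0.0545 for Gstt1 and 0.122 for Gstt3) and with TPM as deposited (0.841 and 0.836). The diet difference of Gstt1 was -0.17 in muscle and -0.59 in adipose tissue, an interaction of 0.43 ± 0.15 (SE; adjusted p = 0.0239), and that of Gstt3 was -0.05 and -0.40, an interaction of 0.35 ± 0.13 (SE; adjusted p = 0.0415).

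The members varied widely among the outbred mice within a diet. In liver the SD of log2(scaled TPM + 1) within a diet was above the 80th percentile of all tested genes for 9 of 10 members, the exception being Gstm1 with 0.51 (74.1% of genes lay below it). Gsta2 had an SD of 1.45, Gstm3 of 1.11 and Gstm2 of 1.02, against a median of 0.41 over all 11323 genes. All 10 also exceeded the median SD of the 500 genes nearest to them in mean level. In muscle 6 of 7 members were above the median SD of 0.35, with Gstm2 at 0.71, and Gstp1 was the exception at 0.29 (30.7% of genes lay below it). Gstt1 and Gstt3 in adipose tissue had SDs of 0.66 each, against a median of 0.32. A difference in this spread between the diets was tested by limma on absolute deviations. In that test 0 of 9 members passed in liver, 0 of 5 in muscle and 0 of 2 in adipose tissue, and 0 had an unadjusted p below 0.05 (0.0332%, 0.0367% and 2.35% of all genes passed).

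The neighbours Gstm6, Gstm3, Gstm2 and Gstm1 varied together in liver. Of their 6 pairs, 6 had a Pearson r that passed on the high-fat diet and 5 on the control diet, with r of 0.40 to 0.81 and of 0.34 to 0.78 (permutation p adjusted over each member's pairs with all tested genes, n = 74 mice per diet). Of all 113220 such pairs in liver, 0.664% passed on the high-fat and 0.647% on the control diet. Of the 45 pairs among all members there, 9 passed on the high-fat and 8 on the control diet. Without libraries of low scale factor Gstm2 and Gstm3 did not pass on the high-fat diet (r = 0.35, adjusted permutation p = 0.226, n = 62). Gstm1 and Gstm3 did pass on the control diet in that setting (r = 0.48, adjusted permutation p = 0.0384, n = 60). Gstm2 and Gstm6 had r = 0.74 on the high-fat diet (Spearman's rho = 0.64, permutation p = 1e-05 for each, the smallest that 100000 permutations can give, adjusted p = 0.00803, r = 0.66 without the 2 most extreme mice) and r = 0.78 on the control diet (rho = 0.69, adjusted p = 0.00745, r = 0.72 without 2 mice). Gstm1 and Gstm6 had r = 0.81 on the high-fat diet (rho = 0.72) and 0.52 on the control diet (rho = 0.54), and Gstm1 and Gstm2 r = 0.77 (rho = 0.64) and 0.55 (rho = 0.52). Gstm4, the next gene of the cluster, had r of -0.10 to 0.09 with them on the high-fat and -0.20 to 0.37 on the control diet, and 0 of 4 pairs passed on either diet. On the control diet its r with Gstm1 (0.37, rho = 0.40, adjusted permutation p = 0.0948) was above that of Gstm1 and Gstm3 (0.34, rho = 0.34, adjusted p = 0.145), the 1 pair of the 6 that did not pass there. The 4 covarying genes share transcript sequence with each other or with the same pseudogenes, whereas Gstm4 shares 0%, and the part of shared reads in these correlations was not tested.

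Gstt1 and Gstt3, neighbours on chromosome 10, were correlated in liver with r = 0.42 on the high-fat diet (rho = 0.40, adjusted p = 0.0461, r = 0.40 without 2 mice) and 0.55 on the control diet (rho = 0.62, adjusted p = 0.0107, r = 0.60 without 2 mice; permutation tests). Without libraries of low scale factor the high-fat value did not pass (r = 0.42, adjusted permutation p = 0.104, n = 62). The control value did (r = 0.59, adjusted permutation p = 0.00632, n = 60). The pair was also correlated in adipose tissue, with r = 0.56 (rho = 0.51, n = 75) and 0.52 (rho = 0.55, n = 73) and adjusted permutation p of 8.08e-05 and 0.000105, in a table where 42.9% and 38.8% of all member-gene pairs passed. In muscle it was not, with r = 0.16 on the high-fat and 0.08 on the control diet (adjusted permutation p of 0.515 and 0.722). The alpha members Gsta2 and Gsta4 had r = 0.36 in high-fat livers, which did not pass (adjusted permutation p = 0.0716), and 0.47 in control livers (rho = 0.44, adjusted p = 0.0165). Without libraries of low scale factor the control value did not pass (r = 0.43, adjusted permutation p = 0.0938). Across classes, Gsta2 and Gstt3 passed in high-fat livers (r = 0.49, adjusted permutation p = 0.01155). Gsta4 and Gstt3 passed in control livers (r = 0.42, adjusted permutation p = 0.036). Neither passed on the other diet (r of 0.29 and 0.09). Without libraries of low scale factor Gsta4 and Gstt3 did not pass (adjusted permutation p = 0.347).

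Gstp1 had a negative r with both theta members in liver. Gstt3 and Gstp1 had r = -0.57 on the high-fat diet (rho = -0.50, adjusted permutation p = 0.00803, r = -0.48 without 2 mice) and -0.30 on the control diet (rho = -0.32, adjusted p = 0.239, r = -0.25 without 2 mice). Gstt1 and Gstp1 had r = -0.39 (rho = -0.37) and -0.29 (rho = -0.32), which did not pass (adjusted permutation p of 0.0688 and 0.269). Of the 9 pairs with Gstp1, 8 were negative on each diet. The third of the lowest liver pairs by mean r over both diets, Gstm4 and Gsta4, had r = -0.12 on the high-fat and -0.24 on the control diet, neither of which passed. The negative r of Gstt3 and Gstp1, of Gstt1 and Gstp1 and of Gstm4 and Gsta4 depends on the scaling. With TPM as deposited these pairs had r of 0.51 to 0.78. Over all pairs of a member with any tested gene the median absolute r in liver was then 0.73 on the high-fat and 0.76 on the control diet. Whether r differs between the diets was not tested.

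**Figure D4:**
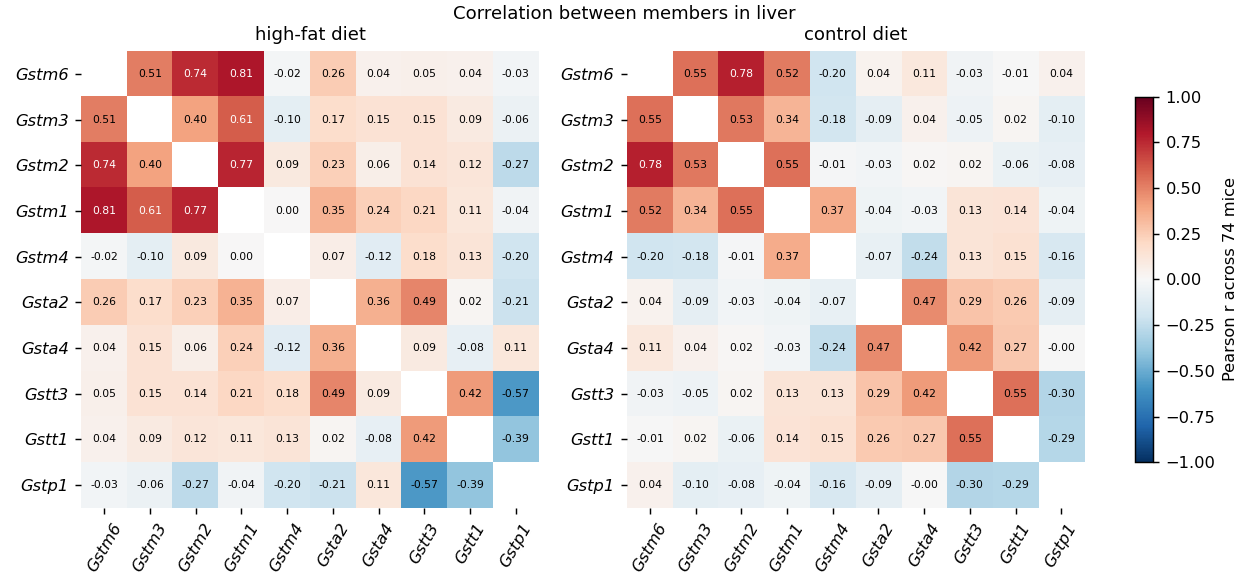
Pearson r between members across 74 mice in liver, on the high-fat diet (left) and the control diet (right), with genes of a cluster placed next to each other. The block of Gstm6, Gstm3, Gstm2 and Gstm1 is red on both diets (0.34 to 0.81), Gstm4 beside it is pale except against Gstm1 on the control diet (0.37), and Gstp1 is blue against Gstt3 (-0.57 and -0.30).

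In muscle the pair Gstm1 and Gstm2 stood out as in liver, with r = 0.77 on the high-fat diet (rho = 0.62, adjusted permutation p = 0.000996, r = 0.70 without 2 mice) and 0.66 on the control diet (rho = 0.68, adjusted p = 0.000238, r = 0.66 without 2 mice). Of the 21 pairs of members there, 3 passed on the high-fat and 4 on the control diet, where 6.01% and 17.4% of all member-gene pairs passed. The 2 others that passed on the high-fat diet were Gstm1 and Gstt3, with r = 0.38 (rho = 0.45, adjusted permutation p = 0.0252) and 0.15 on the control diet, and Gstm2 and Gsta4, with 0.35 (rho = 0.35, adjusted p = 0.0443) and 0.20. By mean r over both diets Gstm2 and Gstt3 came next, with r of 0.34 on each diet (adjusted permutation p of 0.0505 and 0.0230), followed by Gsta4 and Gstt3, with 0.18 and 0.36 (adjusted p of 0.432 and 0.0153). The lowest pairs by the same mean were Gstm2 and Gstm4 (r = -0.29 and -0.13), Gstt1 and Gstp1 (0.07 and -0.46) and Gstm1 and Gstm4 (-0.21 and -0.18), of which Gstt1 and Gstp1 on the control diet passed (rho = -0.42, adjusted permutation p = 0.000995).

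Levels of some members went together in liver and muscle of the same mouse. Gstm2 had a liver-to-muscle r of 0.71 across 74 high-fat mice (rho = 0.63, adjusted permutation p = 0.000392, r = 0.67 without the 2 mice farthest from the liver median) and of 0.66 across 74 control mice (rho = 0.61, adjusted p = 0.000376, r = 0.59 without 2 mice). That places it above 99.1% and 98.5% of the 10191 genes tested in both tissues. Gstm1 had r = 0.62 (rho = 0.52, adjusted permutation p = 0.000392, r = 0.55 without 2 mice) and 0.42 (rho = 0.36, adjusted p = 0.00631, r = 0.35 without 2 mice). Gstt1 had r = 0.44 on the high-fat diet (rho = 0.44, adjusted permutation p = 0.00322, r = 0.37 without 2 mice) and 0.26 on the control diet, which did not pass (rho = 0.33, adjusted p = 0.215). In all, 3 of 7 members passed on the high-fat and 2 of 7 on the control diet, and 5.76% and 6.19% of all genes passed as positive. With TPM as deposited 0 members passed, Gstm2 having r = 0.36 on the high-fat and 0.31 on the control diet (adjusted permutation p of 0.0818 and 0.220). In that setting 212 and 268 of 10938 genes passed. Gstm2 lay above 97.9% and 96.7% of all genes there, Gstm1 above 93.5% and 68.1%, and Gstt1 above 70.8% and 66.8%.

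The 4 other members did not pass this test. Gsta4 had a liver-to-muscle r of 0.22 on the high-fat and 0.27 on the control diet, Gstt3 of 0.25 and -0.11 and Gstm4 of 0.17 and 0.04, none of which passed (adjusted permutation p of 0.188 to 0.939). For Gstp1, the most abundant member in both tissues, r was -0.04 and -0.02 (rho = -0.05 and 0.006; adjusted permutation p of 0.937 and 0.965). With adipose tissue 0 of 2 members passed in permutation tests against liver or against muscle on either diet, and 1 of these 8 tests had an unadjusted p below 0.05, that of Gstt3 between muscle and adipose tissue on the high-fat diet (r = 0.29, rho = 0.28, permutation p = 0.0130, adjusted p = 0.131). Among all genes 2.24% and 2.54% passed as positive between liver and adipose tissue and 5.74% and 3.74% between muscle and adipose tissue on the high-fat and the control diet.

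**Figure D5:**
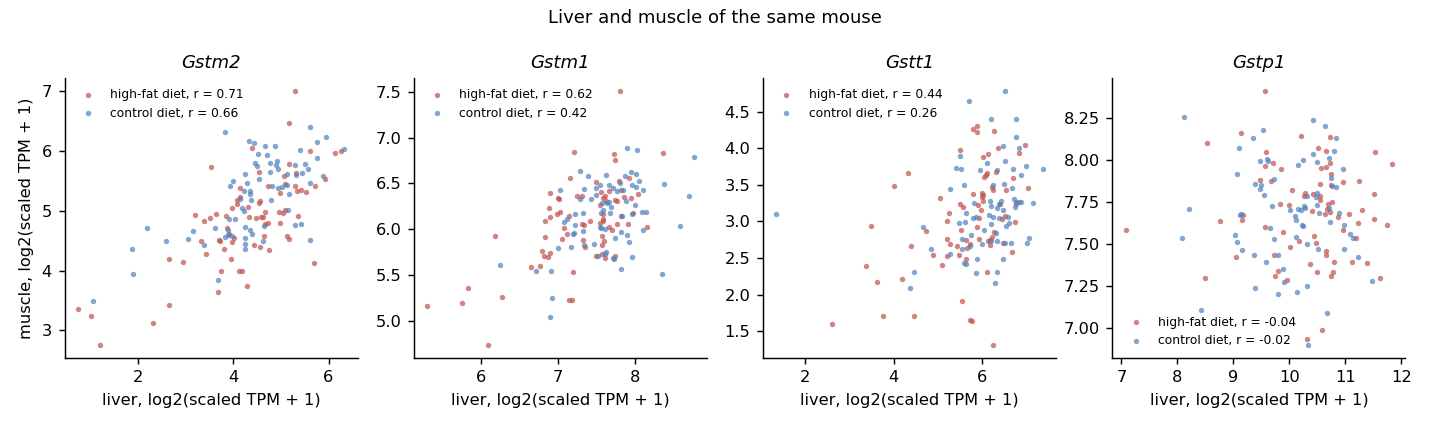
Level of 4 members in liver (horizontal axis) and muscle (vertical axis) of the same mouse, both as log2(scaled TPM + 1), for 74 high-fat (red) and 74 control mice (blue). Mice low in liver Gstm2 and Gstm1 are also low in muscle (r = 0.71 and 0.66 for Gstm2 on the high-fat and control diet), whereas the Gstp1 points form no line (r = -0.04 and -0.02).

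The gene whose level was most like that of each member was named by the highest Pearson r across the mice of both diets after removal of the diet means, as a description of libraries that share scaling. Other GSTs, predicted genes, clone names and pseudogenes were left out. Up to 4 of the names left out (for Gstm3 in liver) had a higher r than the gene named. In liver Gstt1 was most like Ddt (r = 0.58), the gene of D-dopachrome tautomerase that flanks the theta cluster, and in muscle Gstt3 was most like the same gene (r = 0.49). Gstt3 in liver was most like Mat1a, the hepatic methionine adenosyltransferase (r = 0.66), and Gstp1 was most like Mup21, a major urinary protein (r = 0.61). For the covarying mu members in liver the values were lower, with Degs1 for Gstm1 (0.40), Dram2 for Gstm2 (0.41), Sort1 for Gstm3 (0.41) and Rab32 for Gstm6 (0.40). Gstm4 was most like Scamp3 (0.66), Gsta4 like Hnrnpc (0.59) and Gsta2 like Cyp2c54, a cytochrome P450 (0.42). In muscle Gstp1 was most like Elob (0.75), the elongin B subunit, Gstt1 like Rarres2 (0.75), the gene of chemerin, Gsta4 like Chpt1 (0.47), Gstm4 like Tada2a (0.44), Gstm1 like Fxyd1 (0.42) and Gstm2 like Dcxr (0.37).

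The other cytosolic GSTs that passed fell. For comparison, 5.79% of all genes fell and 5.01% rose in liver, 1.69% passed in muscle, and 23% fell and 23% rose in adipose tissue. In liver 2 of 9 tested fell and 0 rose, Gstm7, the mu gene next to Gstm6, by 0.48 ± 0.11 and the abundant alpha gene Gsta3 by 0.26 ± 0.08 (SE; adjusted p of 0.00111 and 0.0272), and the list's median difference was -0.08. Gstp2, the near copy of Gstp1, averaged 8.30 ± 10.98 scaled TPM in high-fat and 4.86 ± 4.69 in control livers and did not pass (0.43, adjusted p = 0.132). In adipose tissue the 2 tested, Gstm7 and Gstm5, fell by 1.05 ± 0.29 and 0.59 ± 0.22 (SE), with SDs above the means. There Gstm7 averaged 29.75 ± 64.2 scaled TPM on the high-fat and 50.2 ± 98.6 on the control diet, and Gstm5 70.7 ± 107.8 and 95.7 ± 102.3 (SD, n = 75 and 73). In muscle 0 of 7 passed by limma (1 at an unadjusted p below 0.05). There Gstp2 averaged 99.2 ± 22.2 scaled TPM on the high-fat and 93.3 ± 24.6 on the control diet (SD, n = 74 each). Gstp1, which shares sequence with it, averaged 209 and 209.9 in the same muscles. Among membrane and mitochondrial GSTs, Gstk1, the kappa enzyme of mitochondria and peroxisomes, rose by 0.33 ± 0.08 in high-fat livers and fell by 0.28 ± 0.05 in high-fat muscles (SE; adjusted p of 0.00124 and 8.21e-05). Mgst3 fell in liver by 0.38 ± 0.13 (1 of 4 tested rose and 1 fell), while in adipose tissue Ltc4s, the leukotriene C4 synthase, rose by 0.43 ± 0.09 and Mgst1 fell by 0.27 ± 0.07.

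Around the transferases, 3 of 5 transporters that export glutathione conjugates rose in high-fat livers, where 5.01% of all genes rose and 5.79% fell. Of 10 genes of glutathione synthesis and recycling 3 rose, among them the oxoprolinase Oplah (0.32 ± 0.05) and the glutathione synthetase Gss (0.18 ± 0.05), and 2 fell, among them the NADPH-forming dehydrogenase Pgd (-0.36 ± 0.08; SE). Among the transporters 0 fell, and Abcg2 rose by 0.38 ± 0.07, Abcc3 by 0.46 ± 0.10 and Abcc2 by 0.20 ± 0.06 (SE; adjusted p of 1.6e-05, 0.000488 and 0.0123). Of 9 peroxidases and peroxiredoxins 2 rose, Gpx1 by 0.26 ± 0.04, at 1091 ± 177 scaled TPM in high-fat and 910.4 ± 147.5 in control livers, and Prdx6 by 0.15 ± 0.04. In the breakdown of conjugates Ggt6 fell by 0.50 ± 0.09 and the aminoacylase Acy3 rose by 0.36 ± 0.08 (SE; 1 of 9 in each direction, near the shares of all genes).

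Of 15 NRF2 regulators and targets tested in liver 4 rose and 0 fell, including Aox1 (0.53 ± 0.15), Mafg (0.21 ± 0.06) and the epoxide hydrolase Ephx1 (0.28 ± 0.09; SE), with a list median of 0.07. Of 12 xenobiotic receptors and targets 4 rose, among them the receptor CAR gene Nr1i3 (0.51 ± 0.11) and its partner Rxra (0.19 ± 0.04), and 1 fell, the carboxylesterase Ces2a (-0.55 ± 0.08; SE). In muscle 1 of 17 NRF2 genes passed, Srxn1 (0.25 ± 0.07, adjusted p = 0.0473), and 0 of 10 genes of glutathione synthesis, 0 of 11 peroxidases, 0 of 9 breakdown genes, 0 of 5 transporters and 0 of 6 xenobiotic genes did by limma (2, 1, 2, 1 and 1 at an unadjusted p below 0.05). In adipose tissue the haem oxygenase Hmox1 rose by 0.90 ± 0.12, Nfe2l2, which encodes NRF2, by 0.15 ± 0.04 and Txnrd1 by 0.20 ± 0.05 (3 of 6 NRF2 genes rose and 1 fell, in a table where 23% of all genes rose and 23% fell). Glrx2, Gpx3, Prdx2 and Chac2 fell, as did Rxra, Por and Arnt among 4 xenobiotic genes, but with TPM as deposited the differences of Prdx2 (0.0804), Chac2 (0.0727), Rxra (0.0264) and Arnt (0.15) were above 0. The macrophage marker sum was higher in the same high-fat samples, and its part in the Hmox1 difference was not tested.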

How the data were processed

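The authors deposited 1 table of TPM values for each tissue. Every liver and muscle column has the same total, and the adipose table holds part of the genes. The tools named are Bowtie 1.2.2, FastQC and Trim Galore 0.4.4, per the submitters' processing notes. Which program made the TPM, and on which build, is not given in these sources. Total RNA was made into stranded libraries and run on a MiSeq, per the labels' protocols. TPM carries no read depth, so no count model, counting interval or detection limit from counts was used. A listed 0 may be a failed estimate.

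Each library was scaled by a trimmed mean of log ratios (ratio trim 0.3, level trim 0.05) over nuclear protein-coding genes except Lars2, against the median library of its tissue. Genes with at least 1 scaled TPM in 0.7 of the smaller diet group were tested on log2(scaled TPM + 1) with limma 3.58.1 in R 4.3.3 (trend and robust, two-sided, Benjamini-Hochberg over all genes tested, threshold 0.05). Fold changes on this scale understate those of low genes. A gene's values were correlated across mice within a diet and tested with 100000 permutations (Python 3.11.15, numpy 2.4.6), with p adjusted over all genes, or over all pairs of a member with a tested gene. Liver and muscle of mouse 80 were left out. Mouse numbers name the animal in each tissue and so pair the tissues. Over all 10209 genes past the filter in liver and muscle the median r was 0.26 between tissues of the same number and -0.0016 between different numbers. Over 150 genes chosen for their correlation in these same mice, which favours a match, 142 of 149 livers correlated best with the muscle of their own number, 124 of 148 adipose samples with their own liver and 116 with their own muscle. The fit with the mouse as a block was an alternative. On simulated data, with changes put into genes picked at random, the diet test found 90% of changes of 0.5 log2 in liver, 95% in muscle and 94% in adipose tissue. These shares are averages over genes of unlike spread. In liver 9 of 10 members lay above the 80th percentile of SD, and the share found among genes so variable was not determined. Shared transcript sequence was counted in GENCODE M21 transcripts, and promoter windows and neighbouring genes are from RefSeq. The text names the 10 members, up to 3 genes of each pathway list per tissue with the smallest p, the gene most like each member among the names kept, and the 3 highest and 3 lowest pairs of members per tissue by mean r over both diets. The members and all lists were chosen with earlier results of these data known.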

Additional observations from a re-analysis of the deposited data

Results flagged for a closer look

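The diet difference of 2 members differed between muscle and adipose tissue by an interaction test in limma. For Gstt1 the log2 difference of the high-fat against the control diet was -0.17 in muscle and -0.59 in adipose tissue, an interaction of 0.43 ± 0.15 (SE; adjusted p = 0.0239). For Gstt3 it was -0.05 in muscle and -0.40 in adipose tissue, an interaction of 0.35 ± 0.13 (SE; adjusted p = 0.0415). Both calls ended with a pseudocount of 0.1 (adjusted p of 0.0545 and 0.122) and with TPM as deposited (interactions of 0.053 and 0.046, adjusted p of 0.841 and 0.836). Among all genes tested in both tissues 24.2% passed. Adipocyte markers with a row fell in adipose tissue in 4 of 4 cases, and their part in the interaction was not tested. The theta genes did not pass the same test between liver and adipose tissue (0.17 and -0.03).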

How the results depend on the processing

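With TPM as deposited in place of scaled TPM, which shifts the median gene by 0.21 in adipose tissue, -0.16 in muscle and -0.05 in liver, the members past the threshold fell to 0 in liver, 0 in muscle and 0 in adipose tissue, and 0.479% (11 genes higher and 48 lower), 0.111% (5 and 10) and 14.4% (300 and 17) of all genes passed, against 10.8% (567 and 656), 1.69% (1.06% higher and 0.628% lower) and 46% (501 and 500) with scaling. The same setting left 0 members in the interaction of muscle and adipose tissue (444 of 1923 genes passed) and 0 in the same-mouse correlations. It let 121718 of 123060 pairs of a member with any gene pass in high-fat and 121448 in control livers. In muscle 92719 of 94507 and 88112 passed, and in adipose tissue 4322 of 4416 and 4395. It raised the called pairs of members to 100% of those tested, against 19.4%, near the share over all such pairs. It turned the sign of the interaction of liver and adipose tissue for Gstt1 (-0.16), the liver minus muscle level of Gstm2 (-0.78), the spread differences of Gstm2 and Gstm6 in liver (-0.10 each) and Gstp1 in muscle (0.24), and the adipose differences of Prdx2 (0.0804), Chac2 (0.0727), Rxra (0.0264) and Arnt (0.15). It also turned the pairs Gstm4 and Gsta4 (0.78 on the high-fat and 0.68 on the control diet), Gstt1 and Gstp1 (0.64 and 0.69) and Gstt3 and Gstp1 (0.51 and 0.60) in liver, and in muscle Gstm1 and Gstm4 (0.63 and 0.36), Gstm2 and Gstm4 (0.49 and 0.23) and, on the control diet, Gstt1 and Gstp1 (0.47). Deposited TPM carries the unequal share of protein-coding genes between libraries.

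Without the filter on low values 2 members passed in liver (2.81% of all genes) and 0 in muscle (0.301%). With libraries of low scale factor left out 16.8% of all genes passed in liver. In muscle 0 members and 175 of 13278 genes passed, and in the interaction of liver and muscle 1 member and 585 of 10236 genes. In that setting the sign turned for Gstp1 in muscle (0.0185), for the spread of Gsta4 in liver (-0.0311) and in muscle (-0.0261), for Gstm4 and Gsta4 in high-fat liver (0.0912) and for Gstt1 and Gstp1 in high-fat muscle (-0.11). With mouse 80 kept 0 members and 1.08% of all genes passed in muscle, and Gstp1 was at 0.0434 there. Without the mice whose tissues did not match 0 members and 223 of 13220 genes passed in muscle, and Gstp1 was at 0.0019. In muscle 1 member passed with a pseudocount of 0.1 and 1 with limma without trend and robust (197 and 221 of 13207 genes). With a pseudocount of 0.1, 0 members and 408 of 1899 genes passed the interaction of muscle and adipose tissue. The cause of these changes was not tested. With the mouse as a block, 2 members passed that interaction as before (0.43 and 0.35, adjusted p of 0.0166 and 0.0300), 0 passed the 2 others and 6 the liver to muscle comparison, so the pairing changed no call of a member. In liver 4 members passed as before under a pseudocount of 5, with low-factor libraries out, with mouse 80 kept, without trend and robust, and without the mismatched mice.

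The missing depth, the shared sequence of Gsta2 and Gstp1, and an adipose table with rows for 3 members limit what these values can show. Replicates are separate mice, and the second number of 11 liver columns is not explained in the labels.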
